A study of Mus musculus with 4 samples.

Results

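Elastin, the fibrillins, the fibulins and the microfibril-associated proteins are the secreted proteins from which elastic fibres are built, and 10 of their genes were followed here in fibro-adipogenic progenitors (FAPs) of skeletal muscle. The genes were chosen by symbol, as Eln (elastin), Fbn1 and Fbn2 (fibrillins), Fbln1, Fbln2, Fbln5, Efemp1 and Efemp2 (fibulins), and Mfap4 and Mfap5 (microfibril-associated proteins). All 10 were found among the 24421 gene symbols of the count table. FAPs are stromal cells of the muscle interstitium, sorted as living CD31- CD45- Sca1+ cells, and they were divided by surface DPPIV, the dipeptidyl peptidase encoded by Dpp4. DPPIV- FAPs and DPPIV+ FAPs were taken from the same 2 wild-type mice, which gave 4 bulk RNA sequencing libraries and n = 2 mice per cell type. Both mice had received a CSF1R inhibitor, PLX73086 in the study's methods and an agent used to deplete muscle macrophages, for 3 weeks, and had then been back on a regular diet for 3 days. Every library shares this treatment, and no untreated FAPs were compared. The strain, age and sex of these mice are not given in the labels, and the study describes its animals as adults of both sexes. The labels name the tibialis anterior as the source but describe dissection of the muscle of both hindlimbs. The comparison asks which genes set DPPIV+ FAPs apart from the other FAPs of the same animal.

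An elastic fibre has a core of cross-linked elastin laid down on a scaffold of microfibrils, whose main component is fibrillin. Fibulins and microfibril-associated proteins bind fibrillin and elastin, and some of them are needed to deliver tropoelastin and the cross-linking enzymes to the scaffold. Microfibrils also occur without elastin, and they hold latent TGF-beta and BMP growth factors in the matrix. In muscle these proteins lie in the connective tissue around fibres and fascicles and in vessel walls.

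The libraries held 20879405 reads on genes (DPPIV-) and 18240110 (DPPIV+) in mouse 1, and 19196629 and 18525933 in mouse 2. A level is given below in CPM, reads per 1000000 reads of the library after scaling by edgeR's TMM factors, and 3 reads corresponded to between 0.144 and 0.164 CPM. Dpp4 itself was counted at 89.6 CPM (DPPIV-) and 726 CPM (DPPIV+) in mouse 1 and at 39.6 and 574 CPM in mouse 2, so the labels and the gene went together in both mice. Of 5 FAP markers, Ly6a (which encodes Sca1) and Cd34 were higher in DPPIV+ FAPs, Pdgfra and Pdgfrb were lower, and Dcn did not pass the test, with 10285 to 14410 CPM of Dcn in every library. Markers of satellite cells and myofibres summed to between 31.1 and 49.7 CPM, and Pax7 reached at most 0.51 CPM. The test was edgeR's quasi-likelihood F test with the mouse as a block, and a gene was called where its Benjamini-Hochberg adjusted p over 11588 genes was under 0.05. In what follows a log2 fold change is DPPIV+ over DPPIV-, pairs of values are in the order mouse 1 and mouse 2, and the fold change is followed by its standard error (SE). Because these are bulk samples, fewer cells of a type and less RNA per cell cannot be told apart.

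All 10 genes passed the filter on low counts. Of these, 4 were higher in DPPIV+ FAPs (Efemp1, Fbn1, Mfap5 and Efemp2), 4 were lower (Fbn2, Mfap4, Eln and Fbln1) and 2 did not pass the test (Fbln2 and Fbln5). Among all genes tested, 15.8% were called higher, 17.2% lower and 33% in either direction. The median log2 fold change of the 10 genes was 0.01, beside -0.00192 over all genes tested, so the family did not move in one direction but divided, with folds that ran from a log2 value of -2.17 for Fbn2 to 2.22 for Efemp1. In 8 of the 10 the log2 ratio had the same sign in both mice, and the exceptions were Fbln2 and Fbln5. The share of all genes with the same sign in both mice was not computed, so this count has no background beside it.

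**Figure D1:**
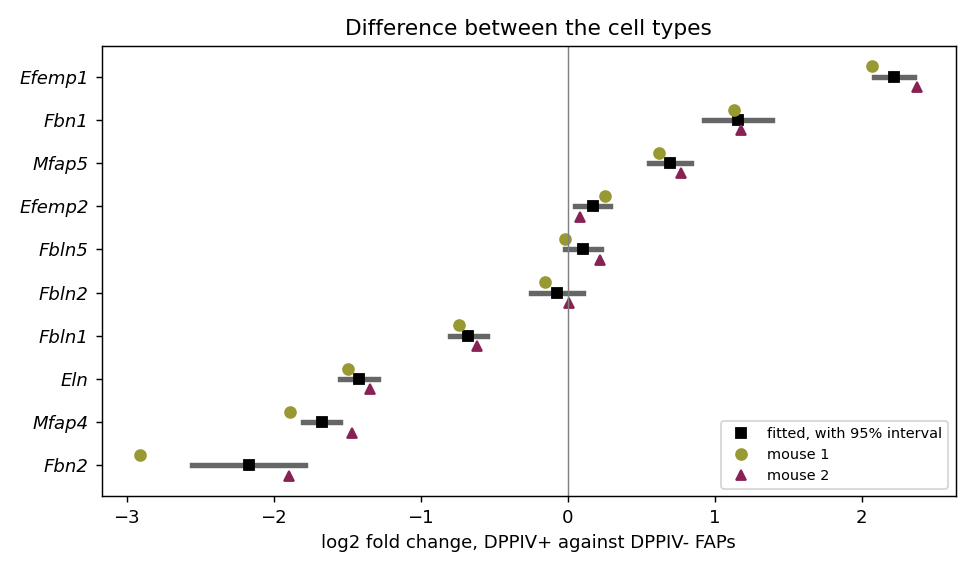
Log2 fold change of each of the 10 genes, DPPIV+ over DPPIV- FAPs (horizontal axis), with the 95% interval of the fit as a bar and the log2 ratio of each of the 2 mice as separate points. Efemp1, Fbn1 and Mfap5 lie above 0.5 and Fbn2, Mfap4, Eln and Fbln1 below -0.5, in both mice, while Fbln2, Fbln5 and Efemp2 lie near 0.

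Taken as a group, the 10 genes took up 1.07% and 1.14% of all reads in the DPPIV- libraries and 1.57% and 1.74% in the DPPIV+ libraries. Nearly all of that difference was Fbn1, which took 0.439% and 0.491% of all reads in DPPIV- FAPs and 0.948% and 1.07% in DPPIV+ FAPs. It made up 41.1% and 43.0% of the group's reads in DPPIV- FAPs and 60.4% and 61.8% in DPPIV+ FAPs.

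Fbn1 encodes fibrillin-1, the main structural protein of microfibrils in adult tissue and the gene mutated in Marfan syndrome (ENSMUSG00000027204.13, chr2:125300594-125507993, minus strand, GRCm38). Its level was 4368 and 4806 CPM in DPPIV- FAPs and 9585 and 10898 CPM in DPPIV+ FAPs. Both DPPIV+ libraries were above both DPPIV- libraries, and the mice were close to each other within each cell type. The log2 fold change was 1.16 (SE 0.12, edgeR adjusted p = 2.96e-21, 2.23-fold), with 1.13 in mouse 1 and 1.18 in mouse 2. In DPPIV- FAPs Fbn1 ranked 17 and 15 among all genes by read count, and in DPPIV+ FAPs it ranked 8 and 6.

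Fbn2 encodes fibrillin-2, the fibrillin best known from embryonic and developing tissue (ENSMUSG00000024598.9, chr18:58008623-58210487, minus strand). It went the opposite way to Fbn1 at a far lower level. DPPIV- FAPs held 7.11 and 15.9 CPM (149 and 312 reads), and DPPIV+ FAPs held 0.942 and 4.27 CPM (17 and 78 reads). Although the groups did not overlap, the mice differed more for Fbn2 than for any other of the 10 genes, and mouse 2 was higher than mouse 1 in both cell types. The fit gave a log2 fold change of -2.17 (SE 0.20, edgeR adjusted p = 1.1e-26), with -2.91 in mouse 1 and -1.90 in mouse 2. Per kilobase of exon, Fbn1 exceeded Fbn2 670-fold and 329-fold in DPPIV- FAPs and 11084-fold and 2781-fold in DPPIV+ FAPs.

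Mfap5 encodes MAGP-2, a small glycoprotein that binds fibrillin along the microfibril (ENSMUSG00000030116.14, chr6:122505845-122529290, plus strand). It had 912 and 874 CPM in DPPIV- FAPs and 1403 and 1493 CPM in DPPIV+ FAPs. The DPPIV+ libraries were higher in both mice, with little spread within a cell type. This was a log2 fold change of 0.70 (SE 0.07, edgeR adjusted p = 5.08e-20, 1.62-fold). This call did not hold against a 1.5-fold threshold (adjusted p = 0.177).

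Mfap4 encodes a fibrinogen-domain glycoprotein that binds tropoelastin and fibrillin and is known from the vessel wall and the lung (ENSMUSG00000042436.12, chr11:61485431-61488900, plus strand). Its level was 361 and 426 CPM in DPPIV- FAPs and 97.6 and 154 CPM in DPPIV+ FAPs. Every DPPIV- value was more than double every DPPIV+ value. In the fit, the log2 fold change was -1.67 (SE 0.06, edgeR adjusted p = 1.73e-144, 3.19-fold lower), with -1.89 in mouse 1 and -1.46 in mouse 2. As a result, the ratio of Mfap4 to Mfap5 per kilobase fell from 0.740 and 0.910 in DPPIV- FAPs to 0.130 and 0.193 in DPPIV+ FAPs.

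Eln encodes tropoelastin, the soluble precursor of the fibre core (ENSMUSG00000029675.12, chr5:134702593-134747323, minus strand). DPPIV- FAPs had 736 and 910 CPM and DPPIV+ FAPs 261 and 359 CPM. The groups lay well apart, and mouse 2 was higher than mouse 1 in each. Eln had a log2 fold change of -1.42 (SE 0.07, edgeR adjusted p = 2.58e-96, 2.67-fold lower), with -1.49 in mouse 1 and -1.34 in mouse 2. Elastin and the main microfibril gene thus went in opposite directions in the same libraries. Per kilobase, Fbn1 exceeded Eln 3.96-fold and 3.52-fold in DPPIV- FAPs and 24.5-fold and 20.3-fold in DPPIV+ FAPs. The ratio depends on the length used for Eln, since its merged exons span 8098 bases and its longest transcript 3853. With the longest transcripts the excess was 1.91-fold and 1.70-fold in DPPIV- FAPs and 11.8-fold and 9.77-fold in DPPIV+ FAPs.

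**Figure D2:**
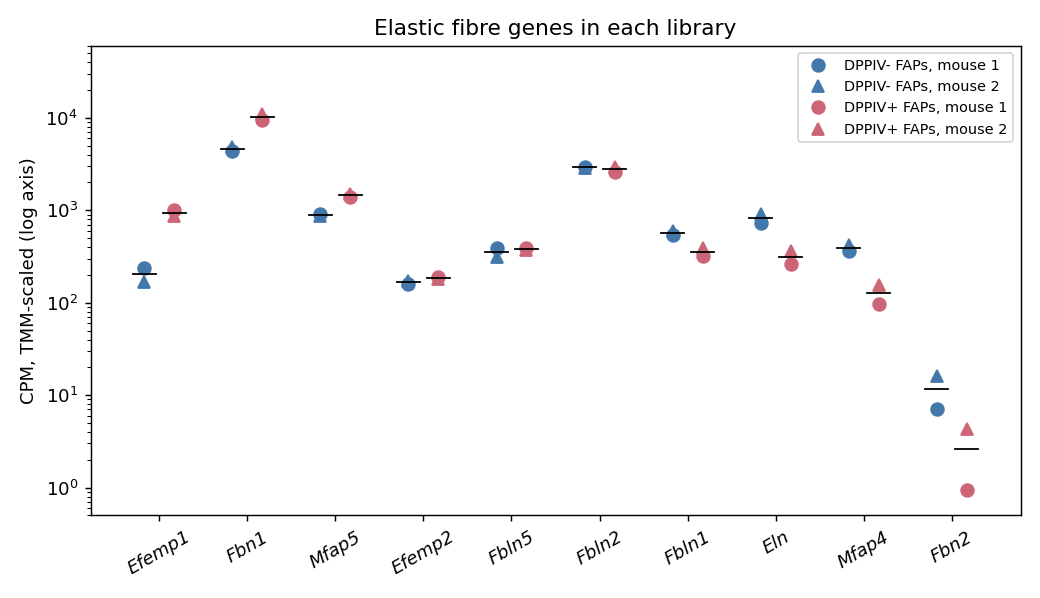
Level of each of the 10 genes in the 4 libraries, in CPM on a log axis, with DPPIV- and DPPIV+ FAPs of mouse 1 and mouse 2 as separate points. Fbn1 lies at the top (4368 to 10898 CPM) and Fbn2 at the bottom (0.942 to 15.9 CPM), and the cell types are furthest apart for Efemp1 and Fbn2.

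The fibulins are a family of proteins built from calcium-binding EGF-like repeats with a shared carboxy-terminal domain. Upstream sequences are shown for 3 of them, the related short fibulins Efemp1 and Efemp2, of which one differed strongly between the cell types and the other little, and Fbln1, which was lower in DPPIV+ FAPs. Each is the 250 bases before a RefSeq transcript start in GRCm38.p6, read 5′ to 3′ on the gene's strand. Capitals mark a GC box (GGGCGG on either strand) in Efemp1 and Efemp2 and an E-box (CACGTG) in Fbln1.
Efemp1, chr11:28852955-28853204, plus strand: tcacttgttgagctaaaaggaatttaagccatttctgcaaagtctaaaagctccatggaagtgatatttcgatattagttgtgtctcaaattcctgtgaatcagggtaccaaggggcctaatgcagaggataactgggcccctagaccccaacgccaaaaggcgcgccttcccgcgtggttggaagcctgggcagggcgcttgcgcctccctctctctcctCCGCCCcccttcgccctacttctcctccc
Efemp2, chr19:5473696-5473945, plus strand: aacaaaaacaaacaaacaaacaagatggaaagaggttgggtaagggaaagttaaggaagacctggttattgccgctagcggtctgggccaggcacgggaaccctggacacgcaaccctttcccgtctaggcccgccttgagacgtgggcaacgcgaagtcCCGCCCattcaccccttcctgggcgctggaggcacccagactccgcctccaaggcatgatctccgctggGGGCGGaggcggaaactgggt
Fbln1, chr15:85205699-85205948, plus strand: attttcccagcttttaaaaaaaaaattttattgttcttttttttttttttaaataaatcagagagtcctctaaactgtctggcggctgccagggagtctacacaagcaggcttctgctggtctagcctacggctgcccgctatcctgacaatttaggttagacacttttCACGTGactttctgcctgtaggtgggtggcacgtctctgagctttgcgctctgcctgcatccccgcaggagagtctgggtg
In the windows shown, the GC box of Efemp1 begins 29 bases before the start, and those of Efemp2 begin 90 and 21 bases before it. The E-box of Fbln1 begins 81 bases before its start. Efemp2 and Fbln1 also have later starts, whose windows are not shown. Those of Efemp2 held 5 GC boxes each, and that of Fbln1 also held a GC box, 11 bases before the start. Upstream windows were at hand for 6 of the 10 genes, in 10 windows because some genes have several starts whose windows can overlap. A GC box was found in 8 of the 10 windows, beside 32.72% of 32817 windows of all genes. These windows are not independent, since overlapping windows of Efemp2 share GC boxes. The windows of Fbn1 and Fbln2 with a GC box lie in annotated exons over all 250 bases. An E-box was found in 2 windows, which are overlapping windows of Fbln1 with the same site, beside 6.02%. The CCAAT box (CCAAT, 33.83% of all windows) was found in 1. On both strands, none of the 10 held a TATA box (TATAAA, 12.37%), an AP-1 site (TGACTCA, 4.46%), a TEAD site (GGAATG, 12.64%) or a palindromic Smad box (GTCTAGAC, 0.17%). Such matches describe the letters of the window and show no binding.

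Efemp1 encodes fibulin-3, a short fibulin of connective tissue and fascia (ENSMUSG00000020467.15, chr11:28853204-28926743, plus strand). It showed the largest rise of the 10 genes. DPPIV- FAPs held 240 and 168 CPM and DPPIV+ FAPs held 1009 and 869 CPM. Both DPPIV+ libraries were far above both DPPIV- libraries, and mouse 1 was higher than mouse 2 in each cell type. Its log2 fold change was 2.22 (SE 0.07, edgeR adjusted p = 4.87e-217, 4.66-fold), with 2.07 in mouse 1 and 2.37 in mouse 2, which placed it at percentile 99.2 of all genes tested.

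Efemp2 encodes fibulin-4, which links lysyl oxidase to tropoelastin and is needed for elastic fibre assembly (ENSMUSG00000024909.15, chr19:5473954-5482517, plus strand). Its level was 160 and 172 CPM in DPPIV- FAPs and 191 and 183 CPM in DPPIV+ FAPs. The groups did not overlap but lay close together. Its log2 fold change was 0.17 (SE 0.06, edgeR adjusted p = 0.0208, 1.13-fold). The call was lost in 6 of 13 alternatives, among them DESeq2 (adjusted p = 0.378) and the model without mouse (0.199). The ratio of Efemp1 to Efemp2 per kilobase was 2.80 and 1.81 in DPPIV- FAPs and 9.82 and 8.85 in DPPIV+ FAPs.

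Fbln5 encodes fibulin-5, which binds both elastin and cell integrins (ENSMUSG00000021186.9, chr12:101746565-101819055, minus strand). It had 392 and 316 CPM in DPPIV- FAPs and 388 and 369 CPM in DPPIV+ FAPs, so the groups overlapped. The log2 fold change was 0.10 (95% interval -0.02 to 0.23, edgeR adjusted p = 0.22), with -0.02 in mouse 1 and 0.22 in mouse 2.

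Fbln1 encodes fibulin-1, a longer fibulin found in elastic fibres and basement membranes (ENSMUSG00000006369.14, chr15:85205949-85286535, plus strand). Its level was 539 and 598 CPM in DPPIV- FAPs and 324 and 390 CPM in DPPIV+ FAPs. Both DPPIV- libraries were above both DPPIV+ libraries. The log2 fold change was -0.68 (SE 0.06, edgeR adjusted p = 1.53e-24, 1.60-fold lower). As for Mfap5, the call did not hold against a 1.5-fold threshold (adjusted p = 0.214).

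Fbln2 encodes fibulin-2, a partner of fibrillin-1, elastin and basement membrane proteins (ENSMUSG00000064080.12, chr6:91212455-91272540, plus strand). It was the second most abundant of the 10 genes by reads, and its level was similar in the cell types. DPPIV- FAPs had 2919 and 2892 CPM and DPPIV+ FAPs had 2622 and 2908 CPM. The groups overlapped, and the log2 fold change was -0.07 (95% interval -0.25 to 0.10, edgeR adjusted p = 0.598). By this interval a change of the size seen for Mfap5 or Fbln1 lies outside it, although an interval from 2 mice that borrows its spread from other genes may be too narrow.

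Levels were compared between genes per kilobase of merged exon length. In DPPIV- FAPs the order was Fbln2 (456 ± 2.90 CPM per kilobase, SD, n = 2), Fbn1 (378 ± 25.6), Mfap5 (249 ± 7.52), Mfap4 (205 ± 23.8), Fbln1 (130 ± 9.43), Eln (102 ± 15.2), Efemp1 (100.1 ± 25.2), Fbln5 (51.2 ± 7.78), Efemp2 (43.8 ± 2.37) and Fbn2 (0.871 ± 0.472). Only Eln and Efemp1 were neighbours whose values overlapped between the mice. In DPPIV+ FAPs the order was Fbn1 (844 ± 76.6), Efemp1 (461 ± 48.7), Fbln2 (434 ± 31.8), Mfap5 (403 ± 17.8), Fbln1 (81.7 ± 10.7), Mfap4 (65.5 ± 20.9), Fbln5 (54.7 ± 1.96), Efemp2 (49.3 ± 1.57), Eln (38.3 ± 8.55) and Fbn2 (0.197 ± 0.178). Here Fbln2 overlapped with both Efemp1 and Mfap5, and Mfap4 with both Fbln1 and Fbln5, while Efemp1 lay above Mfap5 and Fbln1 above Fbln5 in both mice. By mouse, Efemp1 went from place 6 to 2 in mouse 1 and from 7 to 3 in mouse 2, and Eln from 7 to 9 and from 6 to 9. With the longest transcript in place of merged exons, the means put Efemp1 at place 4 and Eln at place 6 in DPPIV+ FAPs, so these places depend on the gene model and the differences between cell types do not.

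In shares of the summed level per kilobase, Fbn1 went from 21.3% and 22.8% in DPPIV- FAPs to 33.6% and 35.8% in DPPIV+ FAPs, and Efemp1 from 6.97% and 4.73% to 21.1% and 17%. Mfap4 went from 11.1% and 12.7% to 2.16% and 3.19%, and Eln from 5.37% and 6.46% to 1.37% and 1.76%. Fbln2, with nearly the same CPM in both cell types, held 27.1% and 26.1% and then 17.5% and 18.2%, because the sum itself was higher in DPPIV+ FAPs (2352 and 2513 against 1692 and 1740 CPM per kilobase). A share falls whenever another gene rises, so shares show the composition of the group and not the change of any gene.

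**Figure D3:**
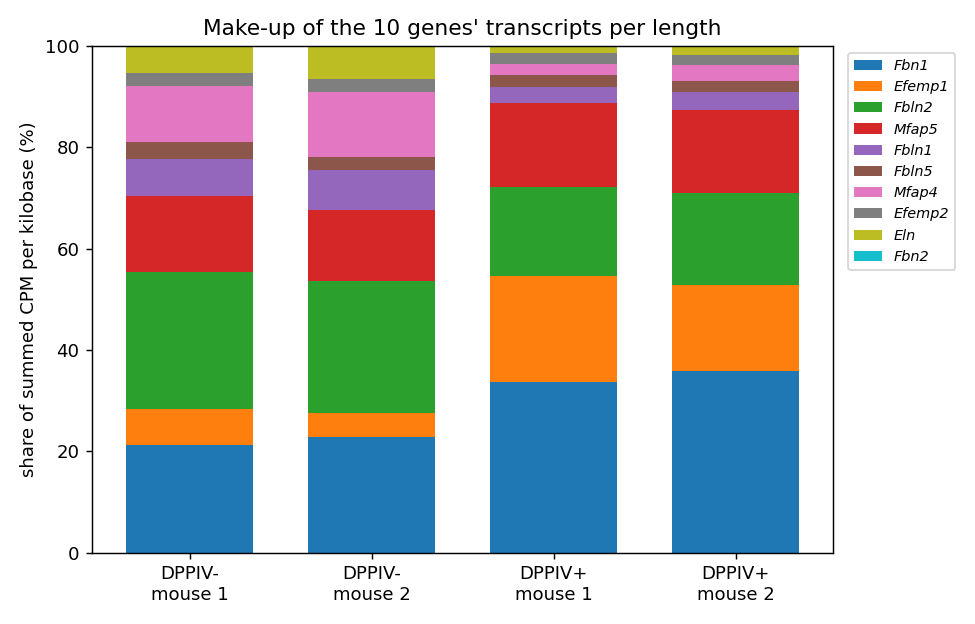
Share of each of the 10 genes in their summed level per kilobase, in percent, as 1 stacked bar per library. Fbn1 and Efemp1 together fill over 50% of both DPPIV+ bars and less than 30% of both DPPIV- bars, while Mfap4 and Eln shrink from a visible band to a thin one.

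The libraries of the 2 mice differed in some of these genes. In the same model, 9.22% of all genes tested were called different between mouse 2 and mouse 1, and 6 of the 10 genes were among them. Mouse 2 was higher for Fbn2 (log2 1.36, edgeR adjusted p = 4.96e-11), Mfap4 (0.44, adjusted p = 4.33e-10), Eln (0.38, adjusted p = 5.24e-07) and Fbln1 (0.21, adjusted p = 0.018), the genes that were lower in DPPIV+ FAPs. Mouse 2 was lower for Efemp1 (log2 -0.36, edgeR adjusted p = 2.69e-06) and Fbln5 (-0.19, adjusted p = 0.0292). Fbn1, Fbln2, Efemp2 and Mfap5 did not pass the test. For Fbn2, Mfap4, Eln, Fbln1 and Efemp1 the difference between mice was smaller than that between cell types. The sorting gene Dpp4 was also lower in mouse 2 (log2 -0.71, edgeR adjusted p = 4.5e-24). Each mouse has its own libraries, so animal and sample preparation cannot be told apart.

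Markers of other stromal cells also differed between the sorted groups. Of 8 mural cell (pericyte and smooth muscle) markers, 7 were lower in DPPIV+ FAPs, led by Abcc9 (log2 -2.35), Notch3 (-1.60) and Kcnj8 (-1.32), and their summed level was 170 and 173 CPM in DPPIV- FAPs and 67.6 and 86.4 CPM in DPPIV+ FAPs. DESeq2 did not call 3 of the 7. The smooth muscle genes were low in every library, with 12.1 to 21.7 CPM for Acta2 and 7.3 to 10.9 CPM for Myh11, which did not pass the test. These markers moved in the direction of Eln, Mfap4 and Fbn2. The part of mural cells in the results for these elastic fibre genes was not tested. Of 6 tenocyte markers, Fmod (log2 2.26), Scx (2.14), Mkx and Tnmd were higher in DPPIV+ FAPs, in the direction of Fbn1 and Efemp1, while Comp and Thbs4 were lower by calls that DESeq2 did not make. The tenocyte sum, mostly Thbs4, was 1971 and 2634 CPM in DPPIV- FAPs and 1999 and 3957 CPM in DPPIV+ FAPs. Fmod alone had 167 and 259 against 687 and 1442 CPM. The part of tenocytes in the results for Fbn1 and Efemp1 was not tested. Tek was higher in DPPIV+ FAPs and 4 other endothelial markers were lower, with sums of 253 and 187 against 506 and 461 CPM. Without Tek these endothelial markers stood at no more than 20.4 CPM each. Haematopoietic markers summed to 308 and 184 against 193 and 177 CPM, with 3 of 6 lower, and of 3 glial markers tested only S100b was called, lower in DPPIV+ FAPs. DESeq2 called none of the 4 endothelial and 3 haematopoietic genes that were lower.

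Other genes of the elastic fibre pathway were taken from 8 lists, which include elastin-degrading proteases, the elastin receptor complex and integrins. They fell on both sides as well. Of 45 such genes tested, 12 were higher, 20 were lower and 13 did not pass the test, with a median log2 fold change of -0.08. Among all 11588 genes tested, 15.8% were called higher and 17.2% lower. Without mouse in the model 11 of the pathway genes were higher and 12 lower, beside 998 and 1113 of all genes tested. Against a 1.5-fold change 8 were higher and 11 lower, beside 442 and 660 of all genes tested. Both other members of the fibulin and hemicentin families that were tested were lower, Fbln7 with a log2 fold change of -1.86 (435 and 360 against 101 and 117 CPM) and the giant matrix protein Hmcn1 with -0.94. Among 5 other microfibril-associated proteins, Mfap2, which encodes MAGP-1, was lower (-0.93, 123 and 115 against 60.8 and 63.5 CPM), opposite to its relative Mfap5, and Mfap3l was higher (0.55), a call that DESeq2 did not make.

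The latent TGF-beta binding proteins, which tie latent TGF-beta to microfibrils or act in fibre assembly, differed in direction. Ltbp1, which stores latent TGF-beta, was higher (log2 fold change 1.00, 305 and 272 against 598 and 553 CPM). Ltbp2 was lower (-2.54, 38.1 and 90.7 against 5.76 and 16.8 CPM), as was Ltbp4, which acts with fibulins in elastin deposition (-0.87, 2636 and 2625 against 1325 and 1556 CPM), and Ltbp3, whose call was lost without mouse in the model. The mice differed for Ltbp2 in the way they did for Fbn2, with mouse 2 higher in each cell type. Of the emilins, glycoproteins at the surface of elastic fibres, Emilin2 was higher (1.80, 328 and 283 against 1092 and 1035 CPM), and Emilin1 (-0.83) and Emilin3 (-2.39) were lower.

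Lysyl oxidases, the enzymes that cross-link elastin and collagen, had a list median of 0.36. Of 5 tested, Loxl4 (1.17), Loxl2 (0.39) and Loxl1 (0.36, 1064 and 1052 against 1306 and 1406 CPM) were higher, Loxl3 was lower (a call lost with DESeq2 and without mouse), and Lox had 350 and 436 against 323 and 429 CPM and did not pass the test. Of 9 fibrillin-binding ADAMTS and ADAMTS-like proteins tested, 5 were higher and 3 lower, and the log2 fold changes ran from -2.61 to 1.44. Adamtsl2, a fibrillin-1 and LTBP1 binding protein, was at the lower end (-2.61, 124 and 165 against 17.7 and 30.3 CPM), followed by Adamts17 (-2.20) and Adamts10. Adamtsl4, which promotes fibrillin-1 deposition, was at the upper end (1.44, 132 and 126 against 345 and 352 CPM), and Adamts19, Adamtsl5, Adamtsl3 and Adamtsl1 were higher too, the last by a call lost without mouse in the model.

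Of 7 elastin-degrading proteases tested, 5 were lower and 0 higher, beside 17.2% and 15.8% of all genes tested, and the list median was -0.37. Mmp9 (-1.15), the cathepsin Ctsk (-0.54, 396 and 352 against 244 and 271 CPM) and Mmp12 (-0.48) had the largest differences, and Ctss and Mmp2 were also lower. Some of these genes are also expressed by macrophages, whose markers differed as given above, and their part in these results was not tested. Without mouse in the model the calls of Mmp9, Mmp12, Ctss and Mmp2 were lost. DESeq2 did not call Mmp12 or Ctss either (adjusted p = 0.401 and 0.139). Of 9 genes of the elastin receptor complex and of integrins that bind microfibrils, Itgb3 was higher (0.77), Itga8, an integrin subunit of smooth muscle and stroma, was lower (-2.23, 20.3 and 18.0 against 3.55 and 4.6 CPM), and Itga5 (-0.20) and Glb1 were lower by calls that DESeq2 did not make.

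**Figure D4:**
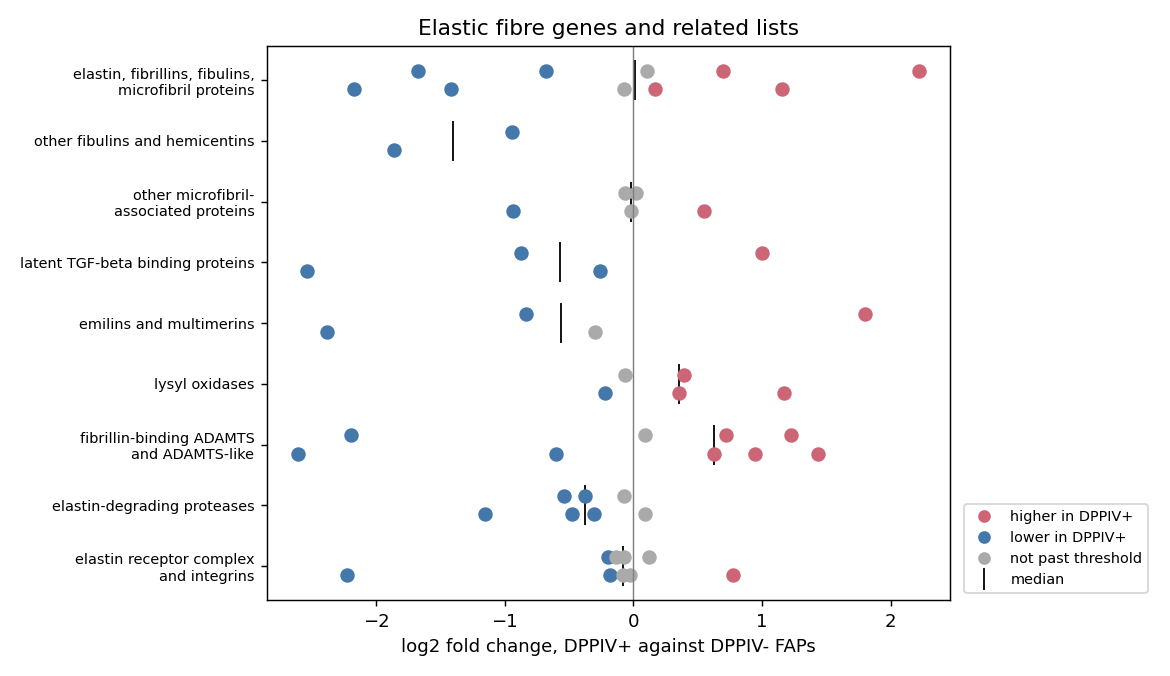
Log2 fold change, DPPIV+ over DPPIV- FAPs (horizontal axis), of the 10 genes and of the genes of the 8 other lists (vertical axis), with 1 point per gene coloured by call and a line at each list's median. The medians run from -1.40 for the 2 other fibulins and hemicentins to 0.63 for the fibrillin-binding ADAMTS and ADAMTS-like proteins, and most lists hold calls in both directions.

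Exons of 5 of the 10 genes overlap an annotated gene on the opposite strand, and the strand setting of the counting is not given in the sources used here. The largest overlap is that of Fbn1 with Gm9913, 2442 of the 12128 merged exon bases of Fbn1. Eln shares 267 bases with Gm30003 and Fbn2 shares 129 with Gm26507, and these 3 neighbours were not among the counted symbols. Mfap4 shares 89 bases with Mapk7 (684 to 788 reads per library) and Efemp2 shares 173 with Mus81 (190 to 267 reads). Without the strand setting, reads of the paired genes over these bases cannot be told apart. The calls of Efemp1, Fbn1, Eln, Mfap4 and Fbn2 held in all 13 alternatives that gave a test.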

How the data were processed

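RNA of sorted DPPIV- and DPPIV+ FAPs from 2 mice was sequenced as paired ends. The authors used bcl2fastq2 2.20 for demultiplexing, STAR for alignment (mm10) and RnaReadCounter for tallying reads per annotated gene, and deposited the raw, unnormalized counts under gene symbols. The labels name a NEBNext Ultra II stranded kit and the study's methods a TruSeq stranded kit. Annotation release and strand setting are not given in the sources used here.

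From these counts, the 11588 genes that reached 2 CPM in 2 or more of the 4 libraries were kept and compared in R 4.3.3 with edgeR 4.0.16 (TMM, glmQLFit without robust moderation, glmQLFTest, two-sided, Benjamini-Hochberg over all genes kept). Mouse was a block, since the labels give each mouse number 1 library of each cell type, and the differences between the mice in the 2 cell types correlated at 0.415 across genes. The fit had 1 residual degree of freedom, and edgeR estimated infinite prior degrees of freedom, so each gene took the spread of the abundance trend, which makes p-values of abundant genes very small. The SE is the size of the log2 fold change over the square root of F, and the 95% interval uses the normal quantile. Log2 ratios per mouse used a prior count of 0.125. Levels per kilobase used merged exon lengths of GENCODE M21 (GRCm38), and upstream sequences are RefSeq's. The procedure was also run on simulated counts, drawn with the spread of the trend and no difference between mice. That run cannot check the spread of single genes between mice. DESeq2 1.42.0 and other settings were alternatives. The totals per library limit precision for counting error only.

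All 10 genes are named with their values. Of each pathway list every gene called is named, with values for at most 3, and of each marker list at most 3 genes by size of change, besides others named after their values were seen. The genes and lists were chosen with earlier results of these data known, so no list was tested as a set.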

Additional observations from a re-analysis of the deposited data

How the results depend on the processing

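Over the alternatives that gave a test, the calls of Efemp1, Fbn1, Eln, Mfap4 and Fbn2 held, with the largest adjusted p, from the model without the replicate block, at 0.00019, 0.00182, 0.00104, 0.0012 and 0.0417. Fbln1 and Mfap5 lost theirs only in the test against a 1.5-fold change, which left 2 of the 10 genes called higher and 3 lower. Efemp2 also lost its call without the replicate block, with DESeq2, the likelihood ratio test, upper-quartile scaling and an adjusted p under 0.01, which left 3 genes called higher. Fbln2 and Fbln5 were called in none. Of the 45 other pathway genes tested, 12 were called lower without the replicate block and 11 in the 1.5-fold test. Over all genes, 998 were called higher and 1113 lower without the replicate block, 923 and 995 with DESeq2, and 442 and 660 in the 1.5-fold test. With 1 mouse left out no test remains, and the log2 fold change of Fbn2 was -2.91 from mouse 1 and -1.90 from mouse 2. The call of Dpp4 was lost under robust moderation (adjusted p = 0.175). Another scaling moved the median log2 fold change of all genes by less than 0.05. Spread from 2 mice and 1 residual degree of freedom limits every test.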
